A study of Mus musculus with 6 samples.

Results

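The 7 genes described here encode orphan nuclear receptors that act in early differentiation: Nr2f1, Nr2f2 and Nr2f6 (the COUP-TF group), Nr2c1 and Nr2c2 (the testicular receptors TR2 and TR4), Nr5a2 (LRH-1) and Nr6a1 (GCNF). They were taken by symbol, and all 7 were found among the 25904 genes of the deposited table, each under 1 identifier. RNA was sequenced from F9 cells, a mouse teratocarcinoma line that differentiates towards primitive endoderm when given retinoic acid. The lines, 3 in number, carried short hairpin RNAs against Ctbp2 (shCtbp2), a corepressor that binds transcription factors, against Rxr (shRxr), the obligate partner of the retinoic acid receptors, or against GFP (shGFP), the control. Each line was treated with all-trans retinoic acid at 1 µM (RA) or left untreated (UT) for 48 hours before harvest. The groups are thus shCtbp2_RA and shCtbp2_UT, shRxr_RA and shRxr_UT, and shGFP_RA and shGFP_UT, with 1 library each. All 6 groups share the F9 background, charcoal-stripped serum and the expression of a hairpin, and the labels do not say whether a line is a clone or a pool. With 1 library per group, no difference within a line has a replicate check.

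Nuclear receptors are transcription factors that bind DNA hexamers related to AGGTCA, alone or in pairs, and recruit coactivators or corepressors. The receptors described here are called orphans because they were found without a known hormone. COUP-TFs and GCNF act mostly as repressors and occupy the same kind of hexamer repeats as retinoid receptors, whereas LRH-1 binds as a monomer and is known in mouse embryonic stem cells as an activator of Pou5f1. GCNF is known for silencing Pou5f1 during differentiation of mouse stem cells, and TR2 and TR4 form heterodimers that repress genes in erythroid cells and bind direct repeats in many others.

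The promoters of the 4 receptors to which the results return are shown first, because the hexamer AGGTCA is the motif shared by the family and by the retinoid receptors. RefSeq's promoter windows on GRCm38.p6 run from 250 bases before to 50 after an annotated start, and all 7 receptors matched, with 10 windows among them. The sequences read 5′ to 3′ in the direction of transcription, and capitals mark AGGTCA or its reverse complement TGACCT. The Nr5a2 window lies at chr1:136960399-136960698, minus strand, the Nr6a1 window at chr2:38784466-38784765, minus strand, the Nr2f2 window at chr7:70366697-70366996, minus strand, and the Nr2f1 window at chr13:78198824-78199123, minus strand.
Nr5a2: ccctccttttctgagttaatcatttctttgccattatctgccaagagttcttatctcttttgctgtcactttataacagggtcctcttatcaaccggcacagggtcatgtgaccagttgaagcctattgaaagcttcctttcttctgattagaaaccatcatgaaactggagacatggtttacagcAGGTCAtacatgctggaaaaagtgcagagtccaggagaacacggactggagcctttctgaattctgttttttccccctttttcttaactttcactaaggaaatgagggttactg
Nr6a1: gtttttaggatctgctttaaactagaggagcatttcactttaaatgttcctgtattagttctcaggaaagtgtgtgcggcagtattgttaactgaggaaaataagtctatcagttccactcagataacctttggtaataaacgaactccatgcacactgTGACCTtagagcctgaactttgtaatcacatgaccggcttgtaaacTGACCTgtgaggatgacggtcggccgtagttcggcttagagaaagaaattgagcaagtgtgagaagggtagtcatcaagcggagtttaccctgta
Nr2f2: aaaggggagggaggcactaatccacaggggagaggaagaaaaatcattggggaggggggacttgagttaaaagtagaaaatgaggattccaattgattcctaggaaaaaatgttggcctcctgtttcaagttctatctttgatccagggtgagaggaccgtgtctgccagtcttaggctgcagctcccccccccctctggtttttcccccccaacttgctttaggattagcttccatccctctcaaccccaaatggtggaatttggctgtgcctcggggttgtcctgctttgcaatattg
Nr2f1: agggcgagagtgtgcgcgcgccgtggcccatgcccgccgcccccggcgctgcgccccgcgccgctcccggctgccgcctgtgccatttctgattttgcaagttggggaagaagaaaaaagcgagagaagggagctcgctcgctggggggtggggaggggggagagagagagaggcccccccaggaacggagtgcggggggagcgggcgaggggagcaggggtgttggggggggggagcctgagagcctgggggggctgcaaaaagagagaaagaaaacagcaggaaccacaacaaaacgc

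The hexamer occurred in 2 of the 10 windows, 1 of Nr5a2 and 1 of Nr6a1, against 16.3% of all 32851 windows of the same length, searched on both strands. Nr5a2, Nr6a1 and Nr2f1 each had a further window, not printed, without the hexamer. The further Nr6a1 window, at chr2:38926412-38926711, minus strand, lies upstream of the printed one. The printed Nr6a1 window thus stands at a start further inside the gene. Window coordinates are on GRCm38.p6 and cannot be set directly beside the mm9 gene coordinates given below. In the printed Nr5a2 window the hexamer stood on the transcribed direction's strand and began 64 bases before the start. The printed Nr6a1 window held it on the opposite strand at 91 and 45 bases before the start. None of the 10 windows held a direct repeat of AGGTCA with 0, 1, 2 or 5 bases between its copies, or the NR5A site TCAAGGTCA, all of which contain the hexamer. These longer motifs were rare everywhere, the commonest being the NR5A site in 0.423% of all windows. Base composition differed widely among the receptors: the Nr2f6 window had 82.7% GC and 53 CpG dinucleotides, the printed Nr2f1 window 68.0% and 23, and the Nr2f2 window 49.7% and 2, beside medians of 52.7% and 7 over all windows. A match is a string of letters in the window and was not measured as binding.

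Levels are given as normalised reads, that is, reads of a gene per 10000000 reads counted in genes of the same library. The libraries held 9955808 to 13322506 counted reads. The knock-downs were seen at the RNA level: Ctbp2 had 55.4 and 210.1 normalised reads in shCtbp2_RA and shCtbp2_UT, against 701 and 1811 in shGFP_RA and shGFP_UT, and Rxra had 82.4 and 73.7 in shRxr_RA and shRxr_UT, against 805 and 520 in the same shGFP libraries. Rxrb, another Rxr gene, had 546 and 638 normalised reads in shRxr_RA and shRxr_UT, against 673 and 605 in shGFP_RA and shGFP_UT. The 6 embryonal carcinoma markers that define F9 cells were all measured above the minimum mean of 20, and they summed to 16232 to 38172 normalised reads in RA libraries and 43521 to 44283 in untreated ones. Parietal endoderm markers summed to 22573 to 40124 in RA libraries and 13994 to 17514 in untreated ones. The fibroblast list, of which 6 of 7 genes were found, summed to 393 to 519 in RA libraries and 131 to 172 in untreated ones. Within it Pdgfrb, a growth factor receptor of mesenchymal cells, rose with RA, with 365 to 465 in RA libraries and 28.2 to 78.7 in untreated ones, and Thy1 fell (log2 change -1.72, limma, Benjamini-Hochberg adjusted p = 0.0035), with up to 130.7. The collagen gene Col1a1 had 10.8 to 24.0, and the defining genes Dcn and Col3a1 stayed at or under 2.01 in every library. Visceral endoderm markers summed to 154 to 287 in RA libraries and 47.7 to 124 in untreated ones, and Cubn among them rose (log2 change 1.71, limma, Benjamini-Hochberg adjusted p = 0.010). Amn did not pass (log2 change 0.50, limma, Benjamini-Hochberg adjusted p = 0.34). The defining genes Afp, Ttr and Apoa1 reached at most 0.805, 4.50 and 2.51 normalised reads in any library. Neural markers, 4 of 5 found, summed to 1343 to 1382 in RA libraries and 1197 to 1692 in untreated ones, and Pax6 among them rose (log2 change 1.70, limma, Benjamini-Hochberg adjusted p = 0.0028). The blood list, 3 of 5 found, summed to 1173 to 2040 in RA libraries and 1530 to 1667 in untreated ones. Laptm5 made up 1101 to 1945 of it, Cd68 had 69.5 to 131, and the defining gene Ptprc reached at most 0.837. The part of these marker levels in the receptors' values was not tested. One library stood apart in base composition: across 12133 genes, Spearman's rho between a gene's GC content and its deviation from its own mean over the libraries was 0.65 in shCtbp2_RA, 0.25 in shGFP_RA and -0.44 to -0.40 in the other 4. GC-corrected values are therefore set beside the receptors they move.

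Per kilobase of merged exons and averaged over the 6 libraries, Nr6a1 was the most abundant of the 7 receptors with 119.7 normalised reads per kilobase, followed by Nr5a2 with 97.9 and Nr2f6 with 74.2. Nr2c2 and Nr2c1 lay close together at 35.5 and 33.1 normalised reads per kilobase. The classical COUP-TF genes were the scarcest, with 4.62 for Nr2f2 and 2.57 for Nr2f1. In bulk RNA, fewer cells that express a gene and less RNA per cell cannot be told apart.

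**Figure D1:**
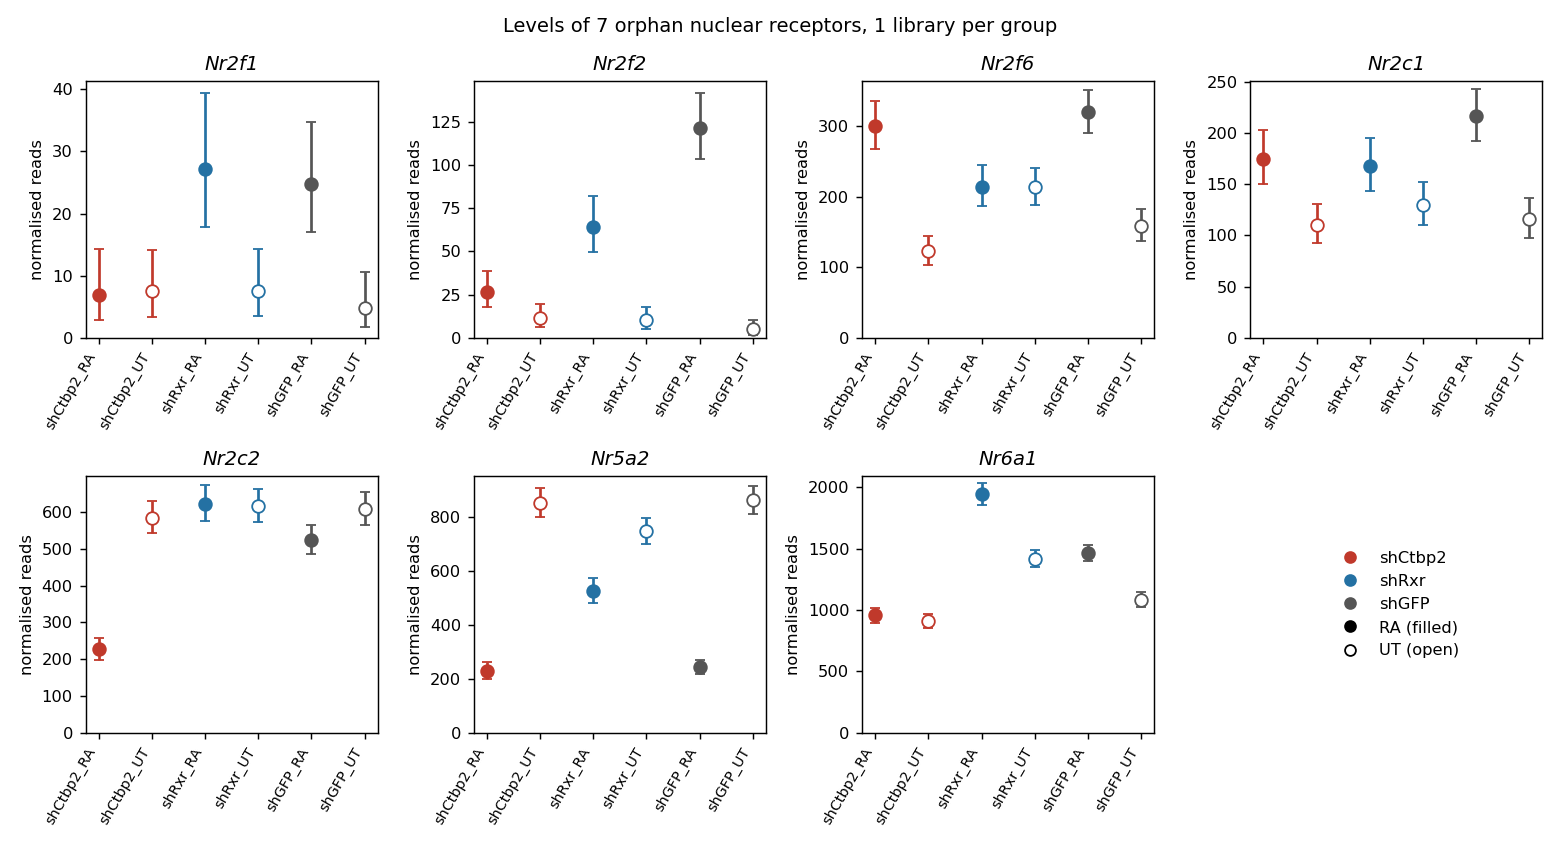
Normalised reads (y axis, linear, from 0, scaled per gene) of the 7 receptors in each of the 6 libraries (x axis), filled for RA and open for untreated, with exact 95% Poisson intervals that cover counting error only. Nr2f2 is highest in shGFP_RA at 122, Nr5a2 is lowest in shCtbp2_RA and shGFP_RA at 229.6 and 244, and Nr2c2 is low in shCtbp2_RA alone at 227.

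Retinoic acid was compared with no treatment to ask how the receptors respond to the differentiation signal, with the lines standing in as replicates. Of the 6 receptors with a mean of at least 20 normalised reads, 1 rose, Nr2f2, and 1 fell, Nr5a2, while Nr2f6, Nr2c1, Nr2c2 and Nr6a1 did not pass the test. By the same test (limma on log2 of normalised reads plus 10, Benjamini-Hochberg adjusted p under 0.05 over 12332 genes), 10.8% of all genes tested rose and 4.63% fell. Nr2f1, with a mean of 13.1, lay under the minimum and was tested only without it. Nr2f2, with 4.83 to 11.6 normalised reads in untreated libraries, passed the minimum only through its RA libraries. With no minimum, limma called 2 of the 7 receptors, where 5.22% of all genes rose and 2.01% fell. The log2 change of Nr2f2 was 1.94 there too. Standard errors hold the differences between lines in RA response, since no group had a replicate. Limma also moderates them towards the spread of the other genes tested.

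Nr2f2 encodes COUP-TFII, a repressor needed for angiogenesis and for atrial and venous identity in the mouse embryo (ENSMUSG00000030551, mm9 chr7:77496832-77511621). It had 26.7 normalised reads in shCtbp2_RA and 11.6 in shCtbp2_UT, 64.3 in shRxr_RA and 10.04 in shRxr_UT, and 122 in shGFP_RA and 4.83 in shGFP_UT. All RA libraries lay above all untreated ones, and the RA libraries were spread in the order shGFP, shRxr, shCtbp2, each step being beyond counting error. The untreated libraries did not differ beyond it. The RA level was 2.31 times the untreated level in shCtbp2 (95% exact binomial interval 1.17 to 4.76), 6.40 times in shRxr (3.42 to 13.0) and 25.2 times in shGFP (11.3 to 69.6), the last against only 6 reads. Across the lines limma gave a log2 rise of 1.94 (SE 0.40, Benjamini-Hochberg adjusted p = 0.0059, higher in 3 of 3 lines). Without the shGFP line the rise was 1.33 on the log2 scale and no longer passed limma's test (Benjamini-Hochberg adjusted p = 0.10). Corrected for GC content and length, the RA change on the log2 scale of normalised reads plus 10 was 1.37 in shCtbp2, against 0.77 uncorrected, and 3.28 in shGFP, against 3.15 uncorrected.

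Nr2f1 encodes COUP-TFI, the close paralog that patterns the mouse neocortex (ENSMUSG00000069171, mm9 chr13:78328234-78339018). It had 6.93 normalised reads in shCtbp2_RA and 7.44 in shCtbp2_UT, 27.1 in shRxr_RA and 7.53 in shRxr_UT, and 24.8 in shGFP_RA and 4.83 in shGFP_UT. Only the RA libraries of shRxr and shGFP stood out, and they did not differ from each other beyond counting error, nor did the other 4 libraries. These levels rest on 6 to 33 reads per library. The RA level was 0.931 times the untreated one in shCtbp2 (0.295 to 2.81), 3.60 times in shRxr (1.64 to 8.70) and 5.13 times in shGFP (2.12 to 15.0). With no minimum on the mean, limma's log2 change over the lines was 0.76 (SE 0.28, Benjamini-Hochberg adjusted p = 0.13), where 5.22% of 23886 genes rose.

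Nr2f6 encodes EAR2, a more distant COUP-TF relative that represses cytokine genes in mouse T cells (ENSMUSG00000002393, mm9 chr8:73898022-73905859). It had 299.9 normalised reads in shCtbp2_RA and 122 in shCtbp2_UT, 214 in shRxr_RA and 213 in shRxr_UT, and 320 in shGFP_RA and 159 in shGFP_UT. The RA libraries of shCtbp2 and shGFP were high and did not differ beyond counting error, and the shRxr libraries lay between them and the other untreated ones. The RA level was 2.45 times the untreated one in shCtbp2 (2.01 to 3.0), 1.00 times in shRxr (0.832 to 1.21) and 2.02 times in shGFP (1.70 to 2.40). Over the lines the log2 change was 0.73 and did not pass limma's test (SE 0.30, Benjamini-Hochberg adjusted p = 0.12), whereas without the shRxr line it was 1.10 and did (adjusted p = 0.017). The Nr2f6 transcript has 67.3% GC, higher than in 99.87% of the genes tested. After correction for GC content and length its RA change on the log2 scale was 0.09 in shCtbp2, against 1.23 uncorrected, and 0.52 in shGFP, against 0.97 uncorrected. The gene overlaps Ocel1 over 5239 bases, and how reads of that stretch were assigned is not given in the sources used here.

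Nr2c1 encodes TR2 (ENSMUSG00000005897, mm9 chr10:93610768-93659956), which pairs with TR4 on direct repeats. It had 175 normalised reads in shCtbp2_RA and 110.0 in shCtbp2_UT, 168 in shRxr_RA and 129.7 in shRxr_UT, and 217 in shGFP_RA and 116 in shGFP_UT. Every RA library lay above every untreated one, and untreated libraries next to each other in level did not differ beyond counting error. The RA level was 1.59 times the untreated one in shCtbp2 (1.26 to 2.01), 1.29 times in shRxr (1.03 to 1.62) and 1.87 times in shGFP (1.53 to 2.30). The log2 change of 0.61 over the lines did not pass limma's test (SE 0.28, Benjamini-Hochberg adjusted p = 0.15). After the GC and length correction it was 0.91 and did pass (limma, Benjamini-Hochberg adjusted p = 0.029), the change being 1.31 in shCtbp2, against 0.63 uncorrected, and 1.11 in shGFP, against 0.85 uncorrected.

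Nr2c2 encodes TR4, the partner of TR2 (ENSMUSG00000005893, mm9 chr6:92041384-92123051). It had 227 normalised reads in shCtbp2_RA and 585 in shCtbp2_UT, 623 in shRxr_RA and 617 in shRxr_UT, and 525 in shGFP_RA and 609 in shGFP_UT. A single library, shCtbp2_RA, was low, and the 3 untreated libraries and shRxr_RA did not differ stepwise beyond counting error. The RA level in shCtbp2 was 2.58-fold lower than untreated (2.22 to 3.01), in shRxr 1.01 times the untreated level (0.906 to 1.12), and in shGFP 1.16-fold lower (1.05 to 1.29). Over the lines the log2 change was -0.51 (limma, SE 0.30, Benjamini-Hochberg adjusted p = 0.28). The low value sits in the library with the unusual GC relation: corrected for GC content and length, the change in shCtbp2 was -0.48 on the log2 scale, against -1.33 uncorrected. Nr2c2 overlaps Mrps25 over 3533 bases, and Mrps25 had 528 normalised reads in shCtbp2_RA, against 309 to 385 in the other libraries.

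Nr5a2 encodes LRH-1, which supports pluripotency in mouse embryonic stem cells and bile acid metabolism in the liver (ENSMUSG00000026398, mm9 chr1:138740161-138857004). It had 229.6 normalised reads in shCtbp2_RA and 854 in shCtbp2_UT, 527 in shRxr_RA and 748 in shRxr_UT, and 244 in shGFP_RA and 863 in shGFP_UT. Every RA library lay below every untreated one, and the shRxr_RA library was the highest of the treated ones. The RA level was 3.72-fold lower than untreated in shCtbp2 (3.22 to 4.30), 1.42-fold lower in shRxr (1.27 to 1.58) and 3.54-fold lower in shGFP (3.12 to 4.02). Over the lines limma gave a log2 change of -1.38 (SE 0.31, Benjamini-Hochberg adjusted p = 0.0093, lower in 3 of 3 lines), and after the GC and length correction -1.02 (adjusted p = 0.011). That correction gave a log2 change of -1.001 in shCtbp2, against -1.85 uncorrected, and -1.49 in shGFP, against -1.78 uncorrected. The call was lost without shCtbp2 (log2 change -1.14, limma, Benjamini-Hochberg adjusted p = 0.081) and without shGFP (-1.17, adjusted p = 0.34), and without shRxr the log2 change was -1.82.

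Nr6a1 encodes GCNF (ENSMUSG00000063972, mm9 chr2:38578890-38783208). It had 957 normalised reads in shCtbp2_RA and 909.9 in shCtbp2_UT, 1943 in shRxr_RA and 1416 in shRxr_UT, and 1464 in shGFP_RA and 1084 in shGFP_UT. The shRxr_RA library was the highest, and the shCtbp2 libraries were the lowest and did not differ from each other beyond counting error. The RA level was 1.05 times the untreated one in shCtbp2 (0.964 to 1.15), 1.37 times in shRxr (1.28 to 1.46) and 1.35 times in shGFP (1.26 to 1.45), and the log2 change of 0.32 over the lines did not pass limma's test (SE 0.26, Benjamini-Hochberg adjusted p = 0.42). The order of the lines turned with the GC and length correction, after which the log2 change was 0.52 in shCtbp2, against 0.07 uncorrected, 0.41 in shRxr, against 0.45, and 0.35 in shGFP, against 0.43. Of the genes that lie within Nr6a1, Gm13507, annotated as antisense, reached at most 3.35 normalised reads, and Mir181a-2 and Mir181b-2 were at 0 in all 6 libraries.

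**Figure D2:**
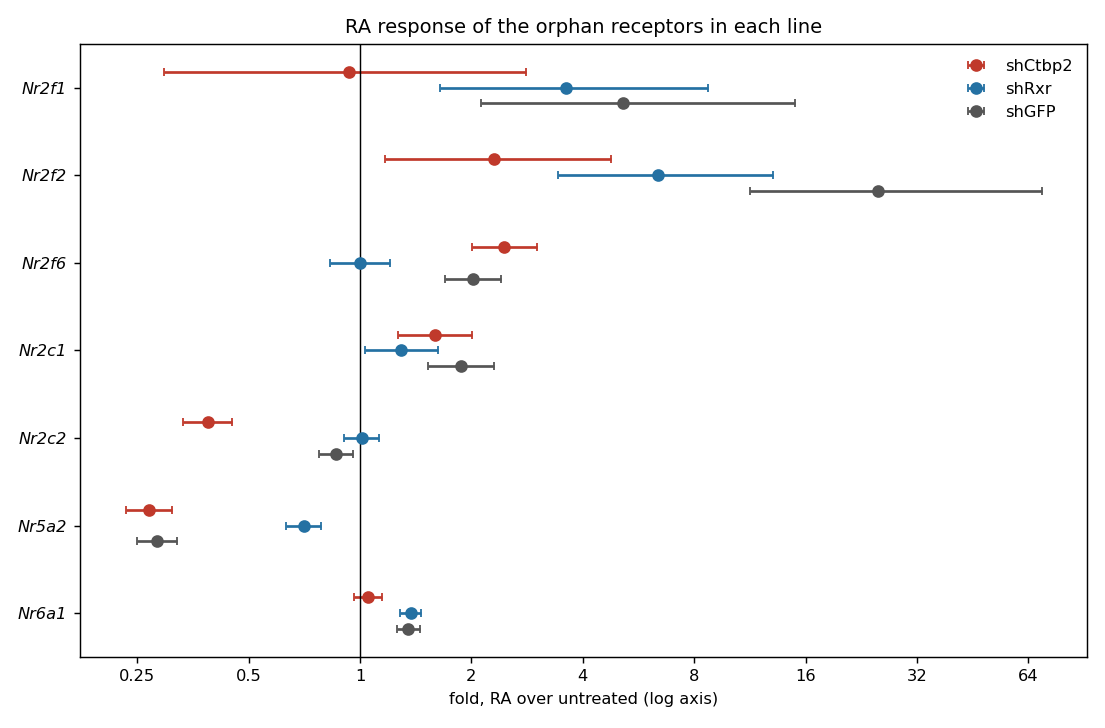
Ratio of the RA level to the untreated level (x axis, log scale) of each receptor in each line, with exact 95% binomial intervals for counting error. Nr2f2 runs across the lines at 2.31, 6.40 and 25.2 in shCtbp2, shRxr and shGFP, and Nr5a2 lies below 1 in every line, nearest to it in shRxr.

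Counted per line, changes of at least 2-fold on the scale of normalised reads plus 10 were as follows, without a test since each line has 1 library per treatment. In shCtbp2, Nr2f6 was at least 2-fold higher with RA, where 15.1% of genes were, and Nr5a2 and Nr2c2 were at least 2-fold lower, where 19.3% of genes were. In shRxr, Nr2f2 was higher (background 5.26%) and none of the 6 was lower (1.46%). In shGFP, Nr2f2 was higher (13.4%) and Nr5a2 lower (7.07%). The median log2 change of all genes tested was 0.07 in shCtbp2, 0.09 in shRxr and 0.12 in shGFP.

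The knock-down lines were then set against shGFP to ask whether the receptors' levels depend on Ctbp2 or Rxr. Over both treatments none of the 6 receptors passed limma's test in either line. For shCtbp2 the log2 differences ran between -0.65 for Nr2f2 and -0.05 for Nr5a2, and for shRxr between -0.20 for Nr2f2 and 0.44 for Nr5a2. Of the 6 receptors, 0 were below an unadjusted p of 0.05 in limma in either line, and limma's voom on the recovered reads called 0 as well. Among all genes, limma called 0.105% raised and 0.0405% lowered in shCtbp2, and 0% raised and 0.00811% lowered in shRxr. Both knock-down comparisons share the shGFP libraries.

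Treatment by treatment, and without a test, none of the 6 receptors reached a 2-fold difference from shGFP in untreated cells on the scale of normalised reads plus 10. The plain ratio of Nr2f2 was 2.40 in shCtbp2_UT (0.865 to 7.61) and 2.08 in shRxr_UT (0.722 to 6.75), both against 6 reads. By the same 2-fold rule 1.39% of all genes lay above shGFP_UT and 2.34% below it in shCtbp2_UT, and 0.389% above and 0.0649% below it in shRxr_UT. In RA the receptors diverged. Nr2f2 in shCtbp2_RA was 4.55-fold lower than in shGFP_RA (3.01 to 7.12), and in shRxr_RA it was 1.89-fold lower than in shGFP_RA (1.41 to 2.57). Nr2f1 was 3.58-fold lower in shCtbp2_RA (1.56 to 9.58) and at 1.09 times the shGFP_RA level in shRxr_RA (0.633 to 1.88). Nr2c2 was 2.31-fold lower in shCtbp2_RA (1.99 to 2.70) and at 1.19 times the shGFP_RA level in shRxr_RA (1.06 to 1.32). Nr2f2 and Nr2c2 were thus the receptors of the 6 at least 2-fold lower in shCtbp2_RA, where 14.8% of genes were lower and 3.18% higher. Corrected for GC content and length, the shCtbp2_RA difference from shGFP_RA was -1.38 on the log2 scale for Nr2f2, against -1.84 uncorrected, and -0.40 for Nr2c2, against -1.18 uncorrected.

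Nr5a2 set the shRxr line apart in RA. In shRxr_RA it stood at 2.16 times the shGFP_RA level (1.88 to 2.49), the only receptor of the 6 at least 2-fold higher, where 3.74% of genes were higher and 2.62% lower, and in shCtbp2_RA at 0.941 times (0.792 to 1.12). Corrected for GC content and length, the shRxr_RA difference was 0.79 on the log2 scale, against 1.08 uncorrected. A higher level in shRxr_RA was not particular to Nr5a2. By the same 2-fold rule, 4 of the 6 embryonal carcinoma markers were higher there, namely Sox2, Nanog, Zfp42 and Tdgf1. Nr6a1 was 1.33 times the shGFP level in shRxr_RA (1.25 to 1.41) and 1.31 times in shRxr_UT (1.22 to 1.404), whereas it was at 0.654 times in shCtbp2_RA (0.604 to 0.706) and 0.839 times in shCtbp2_UT (0.774 to 0.910). The lower Nr6a1 value in shCtbp2_RA depended on the base composition setting, being -0.08 on the log2 scale after correction, against -0.61 before. Nr2f6 was at 0.669 times the shGFP level in shRxr_RA (0.565 to 0.791) and 1.35 times in shRxr_UT (1.11 to 1.63). These Nr2f6 ratios are not corrected for GC content, which is 67.3% in its transcript. Nr2c1 was at 0.808 times the shGFP_RA level in shCtbp2_RA (0.666 to 0.977) and 0.773 times in shRxr_RA (0.635 to 0.939). For Nr5a2 and Nr2c1 the direction in shCtbp2_RA turned after the GC and length correction, to 0.49 and 0.12 on the log2 scale. Rescaling to equal upper quartiles moved the median of all genes in this comparison to -0.05, against -0.19, and turned the direction of Nr2f6 and Nr5a2 there, both of whose counting intervals include 1.

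**Figure D3:**
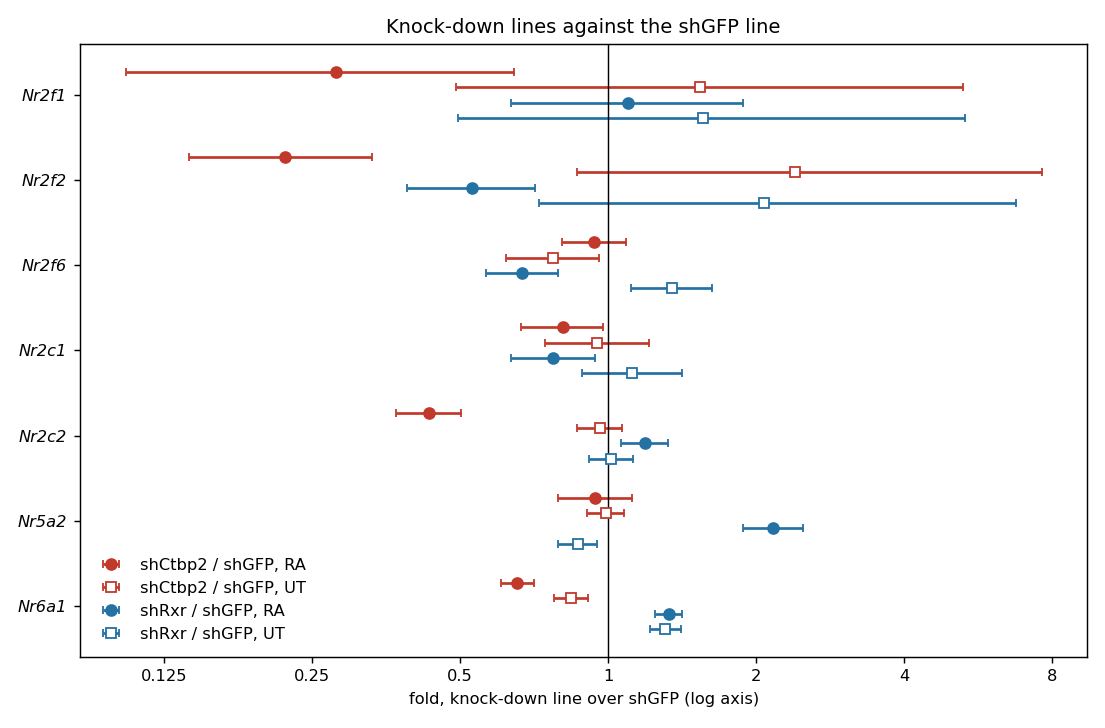
Ratio of each knock-down line to shGFP (x axis, log scale) for the 7 receptors, filled circles in RA and open squares untreated, with exact 95% binomial intervals for counting error. In RA, Nr2f1, Nr2f2 and Nr2c2 lie left of 1 in shCtbp2 and Nr5a2 lies right of 1 in shRxr at 2.16, while the untreated ratios of Nr2f1 and Nr2f2 have intervals that include 1.

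The difference in RA response between a knock-down line and shGFP was taken as a log2 ratio of ratios, with counting intervals from the reads of the 4 libraries. For Nr2f2 the response in shCtbp2 was below that in shGFP by a log2 difference of -3.45 (-4.95 to -1.95), and in shRxr by -1.98 (-3.45 to -0.50). Nr2f1 gave -2.46 for shCtbp2 (-4.36 to -0.56) and -0.51 for shRxr (-2.17 to 1.15). For Nr5a2 the difference was -0.07 for shCtbp2 (-0.34 to 0.20) and 1.32 for shRxr (1.08 to 1.56). Nr2c2 gave -1.15 for shCtbp2 (-1.41 to -0.89) and 0.23 for shRxr (0.01 to 0.44), and Nr2f6 gave 0.28 for shCtbp2 (-0.09 to 0.66) and -1.01 for shRxr (-1.37 to -0.65). The values for Nr2c1 and Nr6a1 lay between -0.53 and 0.02. On the scale of normalised reads plus 10, Nr2f2 and Nr2c2 were at least 2-fold below shGFP's response in shCtbp2, where 12.4% of genes were below and 2.72% above. In shRxr, Nr5a2 was above (5.6% of genes) and Nr2f2 below (4.47%). After the GC and length correction the shCtbp2 difference on that scale was -0.36 for Nr2c2, against -1.12 uncorrected, and -1.91 for Nr2f2, against -2.38. The shRxr difference for Nr5a2 was 0.91 on that scale, against 1.29 uncorrected. The same correction turned the sign of the shCtbp2 difference for Nr2f6, Nr6a1, Nr5a2 and Nr2c1, to -0.43, 0.17, 0.49 and 0.20, and equal upper quartiles turned that of Nr5a2 to 0.09.

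The rest of the nuclear receptor family gives the receptors a frame. Of 42 other nuclear receptor genes, 23 had a mean of at least 20. Limma called 1 of these raised and 3 lowered by RA, where 10.8% of all genes rose and 4.63% fell. Their median log2 change was -0.02, against 0.07 over all genes. Rarb, a retinoic acid receptor and direct retinoid target, rose most (log2 change 4.12, SE 0.33, Benjamini-Hochberg adjusted p = 1.2e-05). It had 145 normalised reads in shCtbp2_RA and 2.48 in shCtbp2_UT, 301 in shRxr_RA and 12.6 in shRxr_UT, and 390.3 in shGFP_RA and 3.22 in shGFP_UT. Nr5a1 (SF-1), the paralog of Nr5a2, fell (log2 change -2.17, limma, Benjamini-Hochberg adjusted p = 0.0018). Nr5a1 lies near Nr6a1 on chromosome 2, and it had 32.7 normalised reads in shCtbp2_RA and 135 in shCtbp2_UT, 57.3 in shRxr_RA and 167 in shRxr_UT, and 16.5 in shGFP_RA and 263 in shGFP_UT. Nr0b1 (DAX1), a corepressor of the NR5A receptors, and Hnf4a, an endoderm and liver regulator, also fell, with log2 changes of -1.28 and -1.32 (limma, Benjamini-Hochberg adjusted p = 0.016 and 0.012). In shRxr, Rxra fell (log2 change -2.90, limma, Benjamini-Hochberg adjusted p = 0.015), and no other of the 23 was called in either knock-down. Without a test, 3 of the 23 were at least 2-fold higher in shRxr_RA than in shGFP_RA, and 1, Rxra, was lower. Across all genes 3.74% were higher and 2.62% lower. Those higher were Nr5a1, Nr0b1 and Rora, with log2 differences of 1.34, 1.31 and 1.10, beside 1.08 for Nr5a2.

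**Figure D4:**
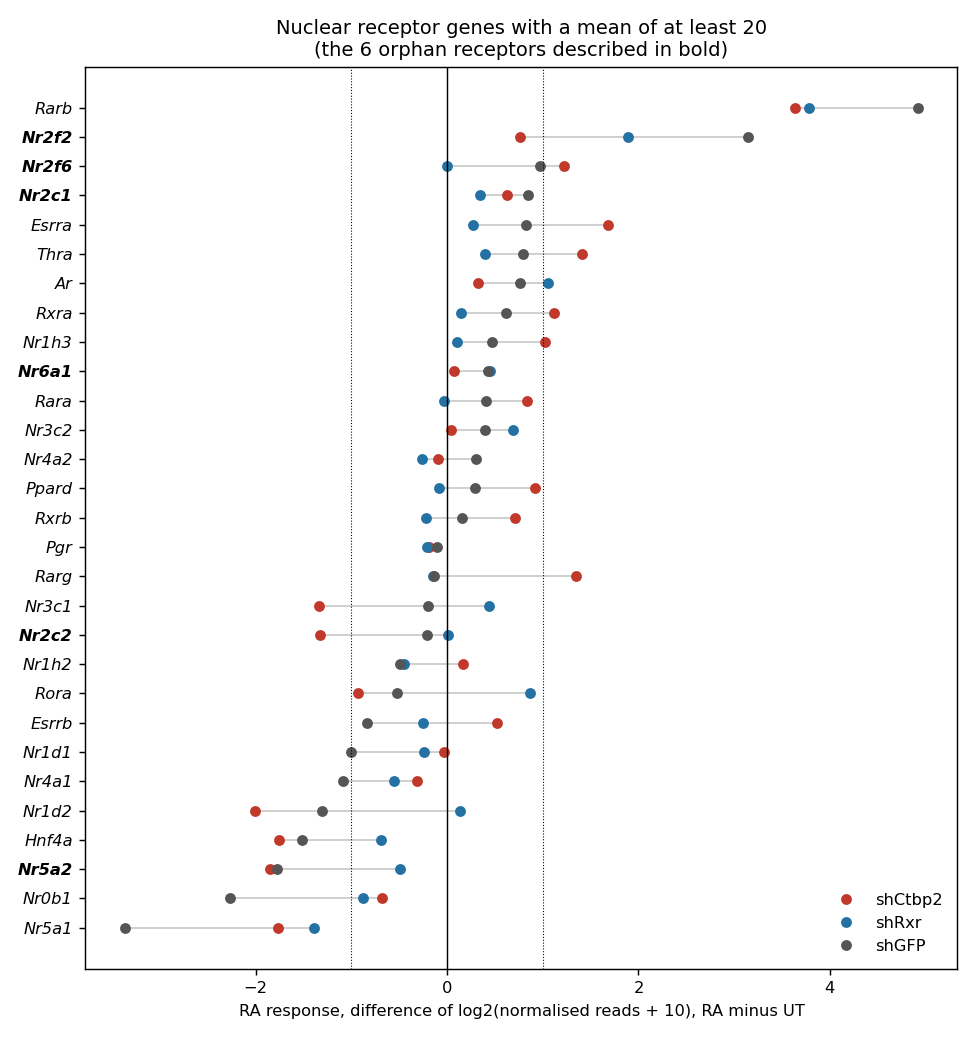
RA response of each nuclear receptor gene with a mean of at least 20 (y axis, ordered by the response in shGFP), as the difference of log2 of normalised reads plus 10 between RA and untreated (x axis), in shCtbp2, shRxr and shGFP. Dotted lines mark a 2-fold change, and the receptors described here are in bold. Nr2f2 lies next below Rarb at the top, and Nr5a2 lies near Nr0b1 and Nr5a1 at the bottom.

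Partners and known targets of the receptors were described from short lists. Of 5 COUP-TF cofactors 4 were tested: Zfpm1 (FOG1, a zinc finger cofactor of GATA factors and COUP-TFs) rose (log2 change 2.77, limma, Benjamini-Hochberg adjusted p = 0.00030) and Bcl11a (CTIP1, a COUP-TF interacting repressor) fell (-2.27, adjusted p = 0.00044). Zfpm1 had 612 normalised reads in shCtbp2_RA and 43.0 in shCtbp2_UT, 277 in shRxr_RA and 82.9 in shRxr_UT, and 715 in shGFP_RA and 72.5 in shGFP_UT. Bcl11a had 9.90 in shCtbp2_RA and 122 in shCtbp2_UT, 14.1 in shRxr_RA and 74.5 in shRxr_UT, and 14.3 in shGFP_RA and 106 in shGFP_UT. Bcl11b and Ncor1 did not pass, with log2 changes of -0.65 and -0.67, and Zfpm2 averaged 5.83 normalised reads. Of 8 cofactors of TR2 and TR4, 7 were tested and Nrip1 (RIP140, a corepressor) rose (log2 change 1.83, limma, Benjamini-Hochberg adjusted p = 0.0017). Dnmt1, Kdm1a, Rcor1, Hdac1, Hdac2 and Trim28 lay between -0.97 and 0.04, and Jazf1 averaged 4.29 normalised reads. Their median log2 changes were -0.66 for the COUP-TF cofactors and -0.01 for those of TR2 and TR4. Beside the counts of both lists, limma called 10.8% of all genes raised and 4.63% lowered by RA. The lists were not tested as sets.

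Of 6 genes known as GCNF targets, 4 were tested and Tdgf1 (Cripto, a Nodal coreceptor) fell (log2 change -2.12, limma, Benjamini-Hochberg adjusted p = 0.0015). Pou5f1, Nanog and Dnmt3b did not pass, with log2 changes of -0.36, -0.53 and -0.14, and Gdf9 and Bmp15, oocyte factors, averaged 2.56 and 0.384 normalised reads. Of 6 LRH-1 targets, 4 were tested and Nr0b1 fell, as given above, while Scarb1, a lipoprotein receptor, had a log2 change of 0.20. Nr0b2 averaged 1.09 normalised reads and Cyp7a1, the rate-limiting enzyme of bile acid synthesis, was at 0 in all 6 libraries. Both target lists had a median log2 change of -0.44, which is fixed in each by Pou5f1 and Nanog, genes that the lists share. Beside the 1 of 4 lowered in each list, limma called 4.63% of all genes lowered by RA. Pou5f1 had 26185 normalised reads in shCtbp2_RA and 18524 in shCtbp2_UT, 13335 in shRxr_RA and 18536 in shRxr_UT, and 8530 in shGFP_RA and 18172 in shGFP_UT, so that shCtbp2_RA was the highest library and shGFP_RA the lowest.

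The genes whose profiles over the 6 libraries were most like each receptor's were found by the root mean square distance between centred log2 profiles, with the same minimum mean. The likeness is a description over 6 libraries that differ in GC relation and depth, which all genes of a library share. Nr5a2 lay nearest to Sox2, a core pluripotency factor, at a distance of 0.10 (Pearson's r = 0.997), followed by Gm2381 and Triml1. Nr2f2 lay nearest to Slc25a24, Mecom and Neurl1b, at 0.19 to 0.27, and Mecom, a zinc finger regulator, had 49.5 normalised reads in shCtbp2_RA and 24.8 in shCtbp2_UT, 105 in shRxr_RA and 11.7 in shRxr_UT, and 185 in shGFP_RA and 11.3 in shGFP_UT. Nr2c2 lay nearest to Celf1, an RNA-binding protein, at 0.022 (r = 0.999), with Ccnt1 and Rapgef2 next. Nr2f6 lay nearest to Cox4i2, Tfap2e and Mmgt2, and Nr6a1 to Cux2, Lonrf2 and Fmnl2. Nr2c1 spanned a log2 range of 0.92 over the libraries, too narrow for the comparison.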

How the data were processed

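RNA of F9 cells was sequenced on an Illumina HiSeq from TruSeq RNA libraries, per the labels' protocols. The submitters' processing notes name TopHat 1.4, HTSeq and mm9. Annotation release, counting mode and strand setting: not given in the sources used here. In the deposited table the unit is log2, and the values themselves show it to be log2 of reads per 10000000 counted in genes, plus 1. Whole reads were recovered from them for 100% of values within 1e-06 of a read, giving 9955808 to 13322506 counted reads per library. All value columns matched a library (0 left over).

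Values were unlogged to normalised reads. Folds between 2 libraries carry 95% exact binomial (Clopper-Pearson) intervals, which cover counting error only and treat reads as independent molecules. RA and knock-down effects were fitted with limma 3.58.1 (R 4.3.3; trend model, line and treatment as terms, 2 residual degrees of freedom) on log2(normalised reads + 10) over 12332 genes with a mean of at least 20, with Benjamini-Hochberg adjustment. The lines and treatments stand in for replicates, so p-values set an effect against the spread between these 6 libraries. Limma adds 11.2 prior degrees of freedom to the 2 residual ones, so that spread is mostly borrowed from the other genes. Counts of 2-fold changes used the same log2 scale. In simulated data made from these means, the RA fit over 12332 genes recovered 95% of 2-fold and 100% of 4-fold changes, with 2.99% false among its calls. The simulation gave every line the same RA change and no GC relation. These rates therefore do not hold for real data, where the lines differ in response. GC content and length came from GENCODE M21 transcripts (98.4% of the tested genes). Alternatives covered the minimum, the pseudocount, scaling, GC and length, voom, and left-out lines and libraries. The receptors and gene lists were chosen with earlier results of these data known. Named genes were the 7 receptors, the knock-down targets with Rxrb, the 3 genes nearest in profile to each receptor whose log2 range reached 1, overlapping genes, and list genes past the limma threshold or, in lists of up to 8, all. A gene of the planned cofactor lists is not reported here. Single genes of the cell type marker lists were named after their values were seen.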

Additional observations from a re-analysis of the deposited data

Results flagged for a closer look

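Nr5a2 and Nr2f6 stood out because the shRxr line differed from shGFP in opposite directions with and without RA, each beyond counting error. Nr5a2 was at 2.16 times the shGFP level in RA and 0.867 times untreated. Nr2f6 was at 0.669 times the shGFP level in RA and 1.35 times untreated. These ratios are not corrected for GC content, and the GC relation differed between shRxr_RA (Spearman's rho -0.42) and shGFP_RA (0.25). The Nr2f6 transcript is high in GC, at 67.3%. Each value compares 1 library with 1 library, and the difference between the treatments was not tested.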

How the results depend on the processing

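Each group has 1 library and low counts bound the precision of Nr2f1 and Nr2f2. Of the results for single receptors under the alternatives, 437 kept their direction and side of the threshold or moved less than counting error, while 26 moved by more than that, 9 no longer passed the test and 4 newly passed it. The 437 overstate the number of separate checks. Another minimum cannot move a receptor's difference between libraries, so those results were the same by construction. Leaving out 1 library of a line also gives the same log2 RA change as leaving out the line. Of the counts of receptors, 191 stayed within 1.5 times and 37 did not. RA and untreated libraries are paired by line through the line term of the fit, without which both RA calls held (limma, Benjamini-Hochberg adjusted p = 0.038 for Nr2f2 and 0.037 for Nr5a2). By replicate number, no paired analysis was possible because the labels carry no such numbers. The causes of the changes below were not tested, apart from the minimum of 100, under which Nr2f2 is not among the genes tested.

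For RA over the lines, limma called 1 receptor raised (Nr2f2) and 1 lowered (Nr5a2). The raised count was 0 with a mean of at least 100 and without the shGFP line, and 2 after GC and length correction (with Nr2c1) and without the shRxr line (with Nr2f6). Of all genes, 5.95% rose at a mean of at least 100, 3.04% without the shGFP line, 14.9% after GC and length correction and 14.2% without the shRxr line, against 10.8%. The lowered count was 0 without the shGFP line and without the shCtbp2 line, where 0.722% and 1.57% of all genes fell, against 4.63%. Leaving out each library in turn gave 0 to 2 raised and 0 to 1 lowered. For shCtbp2 the lowered count was 0, and 0 to 1 when libraries were left out, Nr2c2 being called without shCtbp2_UT (limma, Benjamini-Hochberg adjusted p = 0.043, shCtbp2 then having 1 library assumed to vary like the others), where 8.34% of all genes were lowered, against 0.0405%.

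Median-of-ratios scaling moved the median log2 RA change of all genes to -0.02 in shRxr, against 0.09, and to 0.01 in shGFP, against 0.12, and equal upper quartiles moved it to 0.17 in shCtbp2, against 0.07. Counts of receptors at least 2-fold different moved as follows. With RA in shCtbp2, 2 were higher at pseudocount 1 and after GC and length correction (main value 1), and 1 was lower after that correction (main value 2). With RA in shRxr, 2 were higher with no minimum, and 0 at a mean of 100 or pseudocount 50 (main value 1). With RA in shGFP, 2 were higher with no minimum, at pseudocount 1 and after GC and length correction, and 0 at a mean of 100 (main value 1). In shCtbp2_UT against shGFP_UT, 1 was higher at pseudocount 1 (main value 0). In shCtbp2_RA against shGFP_RA, 1 was lower at a mean of 100 and after GC and length correction (main value 2). In shRxr_RA against shGFP_RA, 0 were higher at pseudocount 50 and after GC and length correction (main value 1). For the RA response of shCtbp2 minus shGFP, 1 was lower at a mean of 100, with equal upper quartiles and after GC and length correction (main value 2). For that of shRxr minus shGFP, 0 were lower at a mean of 100 and pseudocount 50, 2 at pseudocount 1 (main value 1), and 0 were higher after GC and length correction (main value 1).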
